A study of Mus musculus with 14 samples.

Results

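The comparison described here sets fibro-adipogenic progenitors (FAPs) of SMA muscle against those of wild-type (WT) muscle 3 days after glycerol injury. It takes all 4 SMA and all 4 WT libraries of the glycerol table, 8 of the 14 libraries of the series, and all 14330 genes listed in that table. The samples are primary FAPs from the TA muscle of mice, sorted with magnetic beads (MACS), and RNA was taken straight after the sort. The labels give the genotype as SMA, read here as spinal muscular atrophy, or as WT. The sources used here do not give the SMA allele, the strain, the sex, the age or the antibodies of the sort. The other 6 libraries, 3 SMA and 3 WT, are FAPs of the same kind after BaCl2 injury, also at 3 days, and serve here only to show where the effect of the genotype differs. No label says whether libraries of 1 group stand for separate animals, and a p-value then rests on library-to-library spread alone, which may be technical.

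FAPs are the mesenchymal stromal cells of skeletal muscle. After injury they multiply, lay down matrix, signal to satellite cells and macrophages, and are then largely cleared. They can become fat cells or matrix-producing fibroblasts. Glycerol injection kills muscle fibres and is known for the fat that appears as the muscle regenerates, while BaCl2 injury is known for regeneration with little fat. Spinal muscular atrophy is caused by too little of the survival motor neuron protein, SMN, which assembles the particles of the splicing machinery. The title of the series states that SMA FAPs are adipogenic by themselves, and the comparison after glycerol asks how their transcripts differ when the injury itself favours fat.

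Smn1, which encodes SMN, checked the genotype labels. It was listed at 639.6, 806, 738 and 794 normalized counts (the authors' counts scaled between libraries) in SMA libraries 1 to 4 and at 1209, 935, 1084 and 1108 normalized counts in WT libraries 1 to 4. No SMA library reached the lowest WT library, and SMA fell to 68.7% of the WT mean. The log2 fold change, SMA minus WT as for all values here, was -0.54 (SE 0.10, limma adjusted p = 0.0364), and it lay between -0.61 and -0.47 when each library was left out in turn. The two-sided exact permutation p was 0.0286, the smallest that 4 against 4 libraries allow, as it was for every gene named below whose groups do not overlap. The adjusted p of Smn1 was 0.0548 to 0.113 without any 1 of the libraries other than SMA library 3, and 0.0217 without SMA library 3. The sources used here do not say how Smn1 was altered in the SMA mice, so how far its reads check the labels is not known.

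The normalized counts summed to between 71.4 and 76.6 M (M for mega) per library, the lowest mean of a gene was 7.79, and the number of reads behind a value is not known. SMA library 3 stood apart from the other SMA libraries. On the first principal component, which held 31.6% of the variance, SMA libraries 1, 2 and 4 lay at -16.1, -23.2 and -40.5, the WT libraries between 16.1 and 23.8, and SMA library 3 at 2.66. On the second component (17%) SMA library 3 lay at 39.2 and the other 7 libraries between -19.3 and 4.52. The counts of calls in each gene group are therefore given with all libraries and without this one.

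In all, 411 genes passed limma at an adjusted p under 0.05, which is 2.87% of the genes tested, with 243 higher in SMA (1.7%) and 168 lower (1.17%). The lowest adjusted p of any gene was 0.0273, so all calls lie near the threshold, and 3333 genes (23.3%) had an unadjusted p under 0.05, the share to hold beside the unadjusted counts below. Among the called genes, 115 rose by at least 1 on the log2 scale and 24 fell by as much. The groups did not overlap at 2024 genes (14.1%), the share to hold beside the counts of non-overlapping genes below. The 1.7% higher and 1.17% lower are the shares to hold beside the counts of list members that rose or fell. Over all genes the median log2 fold change was -0.00, with 50% above 0. Without SMA library 3, 1645 genes passed (11.5%, with 1081 higher, 7.54%, and 564 lower, 3.94%), among them all 411. The 7.54% and 3.94% are the shares to hold beside list counts without this library. SMA library 3 was the SMA library nearest to WT at 173 of the 243 higher genes, and at 66 of the 168 lower genes. Leaving out any other library ended most calls. Without SMA library 2, SMA library 4, WT library 1 or WT library 3 no gene passed limma, with 2531 to 2701 genes at an unadjusted p under 0.05. Without SMA library 1 or WT library 2 there were 3 calls each, and without WT library 4 there were 82. The direction of all 411 genes was the same in each of these 8 fits, with a median size of 0.65 to 0.71 on the log2 scale against 0.67 with all libraries.

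**Figure D1:**
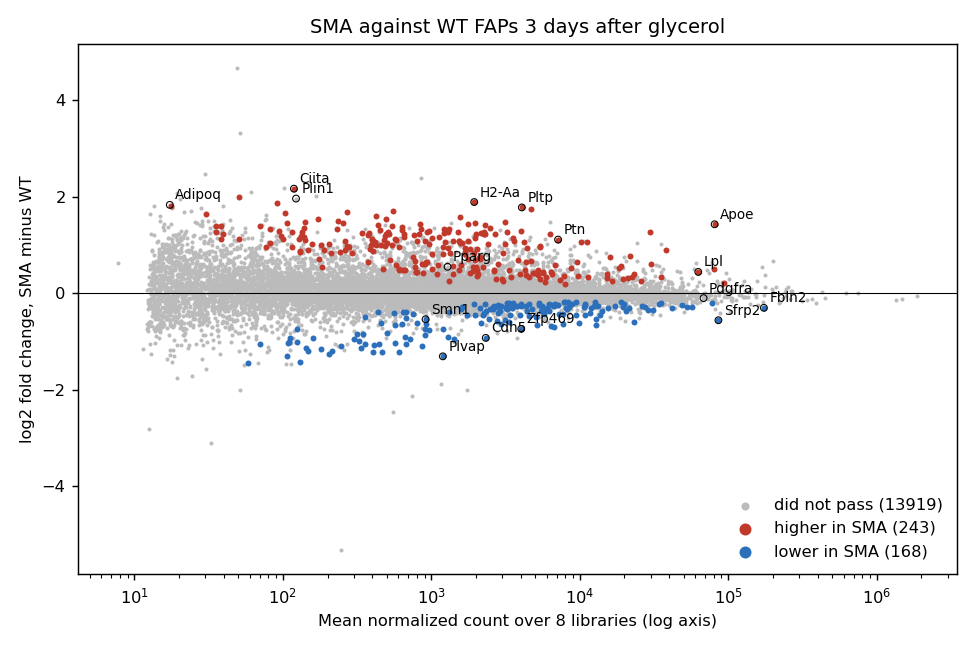
Each point is 1 of the 14330 genes, with its mean normalized count over the 8 libraries (log axis) against its log2 fold change, SMA minus WT. The 243 genes that passed as higher are red, the 168 that passed as lower are blue, genes that did not pass are grey, and circled genes are named in the text. The higher calls reach larger fold changes than the lower calls.

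The genes of MHC class II antigen presentation rose together in SMA libraries. MHC class II molecules display peptides from engulfed proteins to helper T cells. They are made mainly by dendritic cells, macrophages and B cells, and interferon gamma can induce them in other cells, stroma included. Of 11 members of this list tested, 10 rose and 0 fell, beside 1.7% of all genes higher. Their median log2 fold change was 1.45 (1.36 to 1.68 when each library was left out in turn), and without SMA library 3 all 11 passed. The mean log2 level of the list relative to the WT mean was 1.69, 1.76, 0.84 and 1.65 in SMA libraries 1 to 4 and between -0.13 and 0.14 in the WT libraries.

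H2-Aa, the alpha chain of the I-A molecule, was at 3323, 3696, 1805 and 3493 normalized counts in SMA libraries 1 to 4 and at 651, 767, 822 and 999 in WT libraries 1 to 4. SMA library 3 was the lowest SMA library and still lay above the highest WT library. The log2 fold change of H2-Aa was 1.89 (SE 0.23, 95% interval 1.38 to 2.40, adjusted p = 0.0273). Cd74, the invariant chain that guards the peptide groove, was at 7729.8, 8912, 4392 and 7887 in SMA and at 1745, 2001, 2260.4 and 2408 in WT libraries, a log2 fold change of 1.74 (SE 0.21, adjusted p = 0.0273). In both genes SMA libraries 1, 2 and 4 lay close together and SMA library 3 lay midway to WT on the log2 scale. The beta chains H2-Ab1 (1.45, SE 0.23, adjusted p = 0.0299) and H2-Eb1 (1.58, SE 0.22, adjusted p = 0.0286) rose as well, and SMA library 3 was again the lowest SMA library for each.

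Ciita, the coactivator that switches on MHC class II genes, rose the most of the list. It was low, at 282, 245, 109 and 146 normalized counts in SMA and 26.8, 30.8, 51.9 and 58.3 in WT libraries, with no overlap between the groups and a log2 fold change of 2.17 (SE 0.36, adjusted p = 0.0307). The genes for the exchange of peptides in the endosome rose as well. H2-DMa was at 844, 939, 559 and 803 in SMA and 353, 355, 336 and 373 in WT libraries (1.12, adjusted p = 0.0273), H2-DMb1 rose by 1.40 and H2-DMb2 by 1.39 on the log2 scale. H2-Ob, which restrains that exchange, rose by 1.80 (SE 0.36, adjusted p = 0.0384) with 20 to 35.1 normalized counts in SMA and 4.98 to 12.4 in WT libraries. H2-DMb1 and H2-DMb2 are near copies, and reads may be shared between them. Ctss, the protease that trims the invariant chain, rose by 1.27 (SE 0.25, adjusted p = 0.0372), and Ifi30, a lysosomal thiol reductase, did not pass (0.48, adjusted p = 0.16, and 0.00678 without SMA library 3).

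The promoters of these genes are shown because MHC class II genes are known for shared X and Y boxes just before their starts, to which CIITA is recruited. RefSeq gives 32851 mouse promoters on GRCm38.p6, each reaching from 250 bases before to 50 bases after a start. Genes on a chromosome that was left out were not looked up, though its promoters count among the 32851. Of the 10 genes that rose, 7 have a promoter among those looked up. Both strands were searched for CTAGCAAC, the core of the X box, and ATTGG, the CCAAT box read from its other strand, which is the core of the Y box. The letters do not overlap one another in the promoters shown. Below are the 150 bases before the start, 5′ to 3′ on the strand of the gene, with the matched letters in capitals.
H2-Aa (chr17:34287824-34287973, minus strand): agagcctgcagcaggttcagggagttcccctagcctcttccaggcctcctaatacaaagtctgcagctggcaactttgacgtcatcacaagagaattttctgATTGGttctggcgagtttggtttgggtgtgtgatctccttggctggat
H2-Eb1 (chr17:34305717-34305866, plus strand): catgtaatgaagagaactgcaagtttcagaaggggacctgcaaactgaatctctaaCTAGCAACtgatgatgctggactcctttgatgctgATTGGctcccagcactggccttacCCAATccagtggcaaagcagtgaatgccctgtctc
H2-Ob (chr17:34238755-34238904, plus strand): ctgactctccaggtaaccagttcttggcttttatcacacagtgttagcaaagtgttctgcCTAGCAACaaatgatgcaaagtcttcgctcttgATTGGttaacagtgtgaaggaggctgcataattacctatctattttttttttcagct
The X box core stands 94 bases before the start in H2-Eb1 and 90 in H2-Ob, and ATTGG 59 and 57 bases before it. H2-Eb1 also holds ATTGG on its other strand, 35 bases before the start. In H2-Aa, ATTGG stands 48 bases before the start and the X box letters searched are not in the window. Of the 7 genes with a promoter, these 2 alone hold CTAGCAAC, 6 hold ATTGG in at least 1 of their promoters, and Ctss holds neither. CTAGCAAC occurs in 1.32% and ATTGG in 37.4% of all promoters of this length. These matches describe letters only, and the sources used here do not name the build of the deposited tables.

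Markers of monocytes and macrophages were higher beside the MHC class II genes, with Ctss on both lists. Of 29 tested, 11 rose and 0 fell, 28 had a log2 fold change above 0, and 14 did not overlap between the groups (14.1% of all genes). The median log2 fold change was 1.02, and without SMA library 3 it was 1.28 with 27 of 29 higher. No marker was at 0 in any library, so transcripts of these cells were present in the sorted cells of both genotypes. The normalized counts of the 29 markers summed to 206480 to 491110 in SMA and 172860 to 216160 in WT libraries. Their mean log2 level was 0.94, 1.14, 0.15 and 1.42 in SMA libraries 1 to 4 and -0.14 to 0.13 in WT libraries, so SMA library 3 lay next to WT here.

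Ptprc, which encodes CD45 of blood-derived cells, was at 8213, 11183, 5099 and 11113 normalized counts in SMA and 3494, 3365, 3639.5 and 4072 in WT libraries (log2 fold change 1.22, SE 0.22, adjusted p = 0.034). Csf1r, the receptor for the macrophage growth factor CSF1, was at 13333, 16928, 8023 and 17954 in SMA and 6594, 5811, 5982 and 7517 in WT libraries (1.06, adjusted p = 0.0456). In both genes SMA library 3 was the lowest SMA library but above all WT libraries. Ccr2, the chemokine receptor of recruited monocytes, rose by 1.15 (SE 0.17, adjusted p = 0.0286), and Fcgr2b, an inhibitory antibody receptor, by 1.26 (SE 0.22, adjusted p = 0.0309). Adgre1, the F4/80 antigen of mature macrophages, did not pass with all libraries (0.98, adjusted p = 0.0686) and passed without SMA library 3 (1.23, adjusted p = 0.00325). Cd163, a receptor of resident macrophages, was the marker with a value below 0 (-0.24, adjusted p = 0.776). In sorted bulk RNA, a changed number of cells of a type and a changed amount of RNA per cell cannot be told apart, and the part of macrophages in the other genes that rose was not tested.

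Other blood cell types gave few calls. Of 12 dendritic cell markers 0 passed limma, with 3 at an unadjusted p under 0.05 (23.3% of all genes) and 5 higher without SMA library 3 (7.54% of all genes). Irf8, a transcription factor of monocytes and dendritic cells, was nearest with 0.90 (adjusted p = 0.0507). Flt3, which marks the dendritic lineage, was at 6.65 to 37.5 normalized counts in SMA and 4.91 to 21.4 in WT libraries, and the groups overlapped. Of 6 lymphocyte markers Cd4, which some monocytes also express, rose (125, 153, 111 and 149 in SMA and 54.6, 56.4, 42.3 and 64.8 in WT libraries, 1.29, SE 0.19, adjusted p = 0.0286), while the T cell gene Trac did not pass (0.26, adjusted p = 0.631). Of 9 neutrophil markers Csf3r, the receptor for granulocyte growth factor, rose (1.21, SE 0.20, adjusted p = 0.0307). Leaving out SMA library 3, 3 lymphocyte and 2 neutrophil markers were higher and 0 lower by limma (7.54% and 3.94% of all genes).

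**Figure D2:**
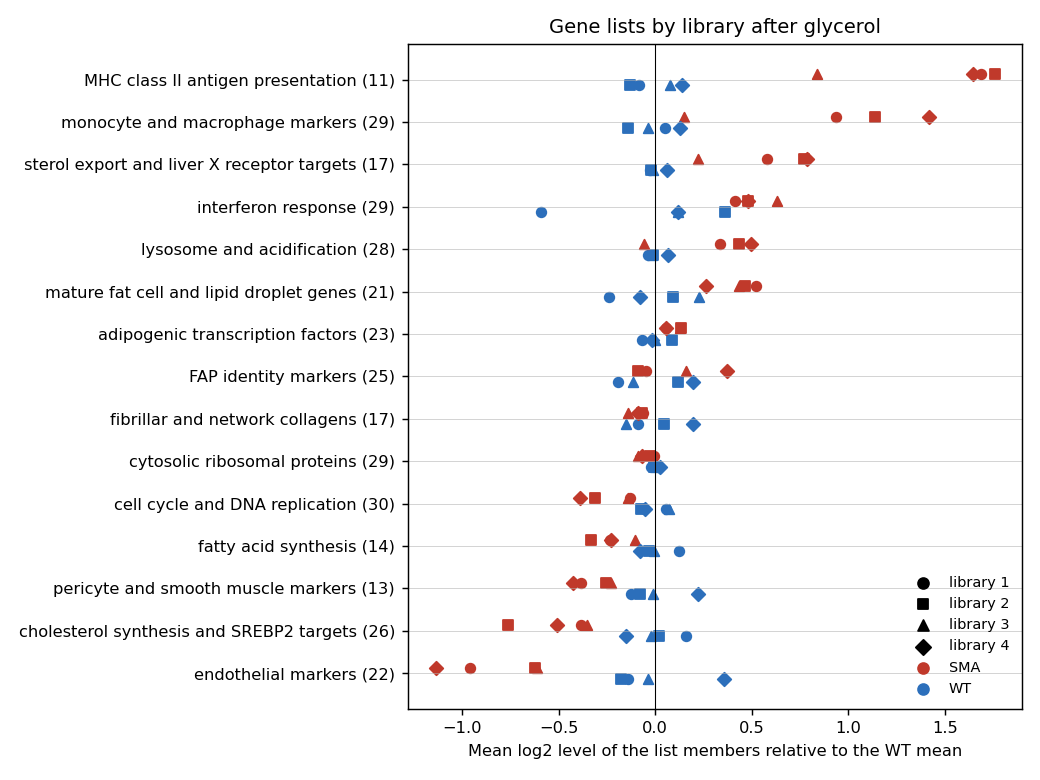
Each symbol is 1 library, with the marker shape giving its number, red for SMA and blue for WT, and the x axis gives the mean log2 level of the list's members relative to the WT mean, with the number of members in brackets. SMA library 3 (triangle) lies near WT for macrophage markers (0.15) and lysosome genes (-0.06) but with the other SMA libraries for cholesterol synthesis (-0.35) and endothelial markers (-0.61).

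Genes of sterol export rose in SMA libraries while those of sterol synthesis fell. Cells sense sterols through factors that act in opposite ways. Liver X receptors switch on export genes when oxidized sterols are plentiful, and SREBP2 switches on synthesis and uptake genes when cholesterol is scarce. Of 17 genes of sterol export and liver X receptor targets, 7 rose and 0 fell (1.7% of all genes were higher), with a median log2 fold change of 0.40, and 10 rose without SMA library 3. Of 26 genes of cholesterol synthesis and SREBP2 targets, 0 rose and 13 fell (1.17% of all genes were lower). All 26 had a negative log2 fold change, 19 did not overlap between the groups, the median was -0.54 (-0.58 to -0.45 when each library was left out in turn), and 20 fell without SMA library 3.

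Pltp, which moves phospholipids between lipoproteins, rose the most of the export list. It was at 6361, 7905, 3917 and 7111 normalized counts in SMA and at 1527, 1939, 1467 and 2331 in WT libraries (log2 fold change 1.78, SE 0.22, adjusted p = 0.0273). Abca1, the transporter that loads cholesterol onto apolipoprotein A-I, was at 17624, 22909, 18219 and 21061 in SMA and 11826, 10662, 10803 and 14218 in WT libraries (0.75, SE 0.11, adjusted p = 0.0286). For Abca1, unlike Pltp, SMA library 3 lay within the range of the other SMA libraries. Abcg1, which exports cholesterol to mature HDL, was at 3743, 5205, 1953 and 3632 in SMA and 1259, 1231, 1410.1 and 1487 in WT libraries (1.35, SE 0.25, adjusted p = 0.0342). Apoe, the lipid carrier apolipoprotein E, was at 114341, 149366, 57709.5 and 159227 in SMA and 42401, 38676, 38084 and 47966 in WT libraries (1.43, SE 0.28, adjusted p = 0.0374), with SMA library 3 next to the highest WT library. Nr1h3, which encodes liver X receptor alpha, rose by 0.61 (adjusted p = 0.0395), Arl4c by 0.68 (adjusted p = 0.0464) and Mylip, a ubiquitin ligase, by 0.40 (SE 0.07, adjusted p = 0.0307). The lysosomal sterol carriers Npc1 (0.13, adjusted p = 0.586) and Npc2 (0.37, adjusted p = 0.0697) did not pass. Macrophages express Apoe, Pltp, Abcg1 and Nr1h3 strongly, and their part in these rises was not tested.

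Genes at early and late steps of the cholesterol pathway fell. Hmgcs1, an early enzyme of the pathway, was at 20412, 16676, 19867 and 17489.7 normalized counts in SMA and 29033, 30998, 26993 and 24958 in WT libraries (log2 fold change -0.59, SE 0.09, adjusted p = 0.0286). Idi1, which makes the active isoprene unit, was at 6484, 4706, 6950.0 and 6134 in SMA and 10973, 9394, 9351 and 8050.1 in WT libraries (-0.64, SE 0.13, adjusted p = 0.0384). Sqle, squalene epoxidase, was at 5478, 3972, 5649 and 4785 in SMA and 8125, 8439, 7826 and 7069.7 in WT libraries (-0.67, SE 0.11, adjusted p = 0.0307). SMA library 2 was the lowest library for each of these 3 genes, and SMA library 3 was no nearer to WT than SMA library 1 for Hmgcs1.

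Other steps fell too, with Cyp51 at -0.66, Msmo1 at -0.64, Sc5d at -0.60, Hsd17b7 at -0.61 and Fdft1 at -0.53 on the log2 scale (adjusted p = 0.0286 to 0.0416). The regulators fell with their targets. Insig1, which holds SREBP in the endoplasmic reticulum, was at -0.54 (adjusted p = 0.0308) and Srebf2, which encodes SREBP2, at -0.37 (adjusted p = 0.0471). Stard4, a cytosolic sterol carrier (-0.65, adjusted p = 0.0353), and Tmem97, a sterol-regulated membrane protein (-0.55, SE 0.07, adjusted p = 0.0273), fell as well.

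Of the 13 cholesterol genes that fell, 9 have a promoter among those looked up, and 2 are shown for the elements that such genes are known for. CACCCCAC, a core of the sterol element bound by SREBP, was searched on both strands beside ATTGG, the letters of the CCAAT box bound by NF-Y, a known partner of SREBP. The 150 bases before the start are given as above, with matches in capitals.
Hmgcs1 (chr13:119690201-119690350, plus strand): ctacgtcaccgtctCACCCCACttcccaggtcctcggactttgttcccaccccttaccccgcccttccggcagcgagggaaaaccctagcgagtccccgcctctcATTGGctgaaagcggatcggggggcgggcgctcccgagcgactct
Idi1 (chr13:8885456-8885605, plus strand): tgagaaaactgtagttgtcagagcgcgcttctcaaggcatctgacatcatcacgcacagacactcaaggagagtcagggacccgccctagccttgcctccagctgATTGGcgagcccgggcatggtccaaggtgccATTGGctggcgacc
CACCCCAC stands 136 bases before the start of Hmgcs1 and occurs in 2.87% of all promoters. ATTGG stands 45 bases before the start in Hmgcs1, and 45 and 14 bases before it in Idi1. All 9 promoters hold ATTGG or its other strand within their 300 bases, beside 37.4% of all promoters, and 1 of the 9 holds CACCCCAC.

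Fatty acid synthesis was lower too. Of 14 genes tested 0 rose and 6 fell (1.17% of all genes were lower), and 13 were negative. The median log2 fold change was -0.29, and 7 fell without SMA library 3 (3.94% of all genes). Fasn, fatty acid synthase, was at 11327, 10208, 14061 and 10662 normalized counts in SMA and 17396, 15540.3, 15573 and 14489 in WT libraries (-0.45, SE 0.10, adjusted p = 0.0487). Scd1, which makes monounsaturated fatty acids, was at 8248, 7452, 8646 and 7472 in SMA and 12156, 10487, 10600.3 and 10391 in WT libraries (-0.46, SE 0.07, adjusted p = 0.0299). The groups did not overlap for either gene. The desaturases Fads1 (-0.40) and Fads2 (-0.37), the elongase Elovl5 (-0.32) and Me1, malic enzyme (-0.26), fell as well, at adjusted p = 0.0299 to 0.0416. Srebf1, the main SREBP gene of fatty acid synthesis, did not pass (-0.19, adjusted p = 0.125). Acsl3, which activates fatty acids for new lipid droplets, was among the genes with the smallest p (3984, 3582, 3811 and 3891 in SMA, 5588, 5486, 5477 and 4799.7 in WT libraries, -0.48, SE 0.06, adjusted p = 0.0273).

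**Figure D3:**
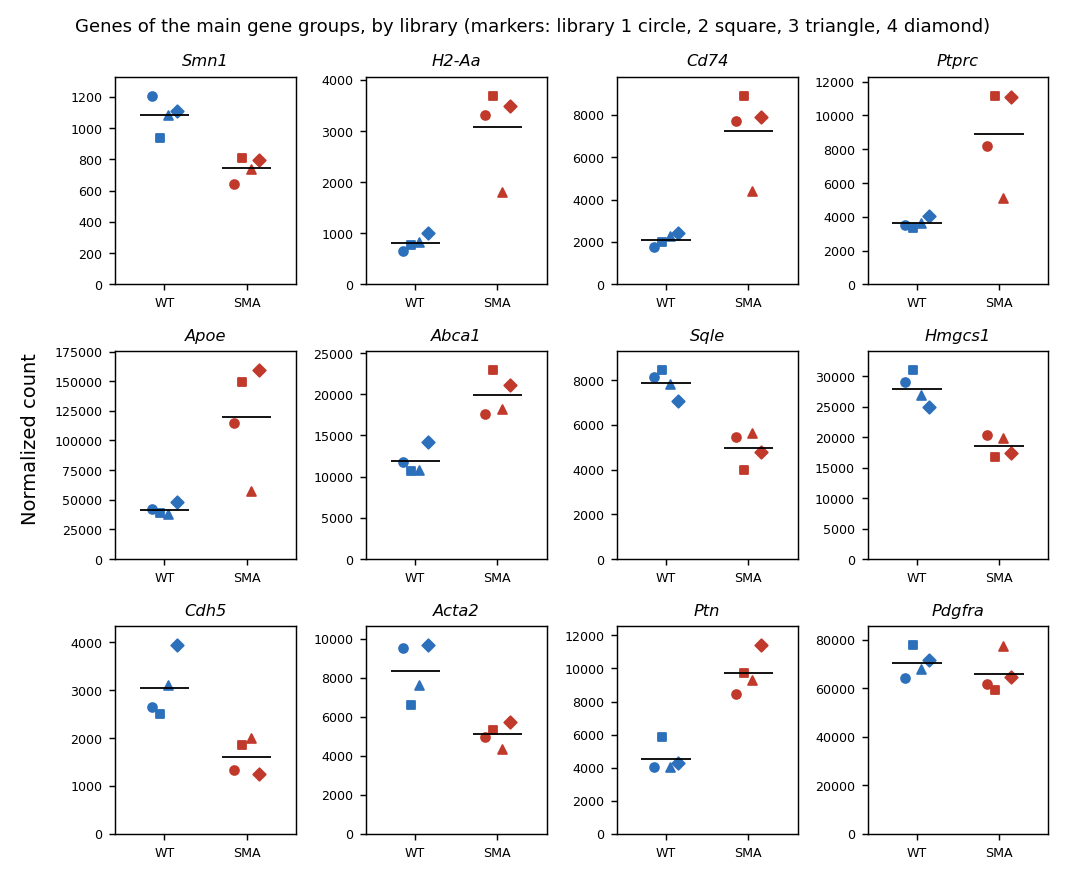
Each panel shows normalized counts of 1 gene in the 4 WT (blue) and 4 SMA (red) libraries, with the marker shape giving the library number and the line the group mean. For 11 of the 12 genes no SMA library overlaps a WT library, and Pdgfra, the FAP marker, overlaps (59457 to 77326 in SMA, 64098 to 77915 in WT). Genes were named in part for passing without overlap, so this count cannot be set beside the 14.1% of all genes.

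Pparg and Cebpa, which encode transcription factors that drive fat cell differentiation, had positive log2 fold changes without passing limma. Pparg was at 1476, 1675, 1674 and 1234 normalized counts in SMA and 853, 1277, 1336 and 769 in WT libraries. Its log2 fold change was 0.55 (SE 0.19, 95% interval 0.12 to 0.98, adjusted p = 0.134), and SMA library 4 lay within the WT range. Cebpa was at 6142, 7822, 5930.1 and 6767 in SMA and 4811, 4614, 5492 and 3918 in WT libraries, with no overlap, 0.50 (SE 0.11, adjusted p = 0.052, and 0.0209 without SMA library 3). In the authors' deposited DESeq2 results, which call 1759 genes at 0.05, Cebpa passed (adjusted p = 0.00199) and Pparg did not (adjusted p = 0.06). Of 23 adipogenic transcription factors 0 passed limma, with 6 at an unadjusted p under 0.05 (23.3% of all genes), 2 higher without SMA library 3 (7.54% of all genes), and a median log2 fold change of 0.07. These shares are near those of all genes. The list also holds Gata2, which restrains fat formation, so its median alone does not give the direction of fat formation.

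Genes of lipid uptake and storage moved in both directions. Of 21 genes of mature fat cells and lipid droplets, 1 rose and 2 fell (1.7% and 1.17% of all genes). The log2 fold change was positive for 15 of the 21, with a median of 0.22. An unadjusted limma p under 0.05 was found for 11 (23.3% of all genes). The mean log2 level of the list was 0.26 to 0.52 in SMA and -0.24 to 0.23 in WT libraries. Lpl, the lipase that frees fatty acids from lipoproteins, was at 72131, 78458, 64494 and 73875 normalized counts in SMA and 49635, 60686, 57001 and 46309 in WT libraries and rose by 0.44 on the log2 scale (SE 0.09, adjusted p = 0.0454). Fabp4, a fatty acid carrier of fat cells that capillary endothelium and macrophages also express, was at 2197, 2421, 2251 and 1949 in SMA and 2963, 2932, 3478 and 3882 in WT libraries, the opposite direction (-0.58, SE 0.10, adjusted p = 0.0317). Gpihbp1, which carries lipoprotein lipase across capillary endothelium, fell with it (100.2, 133, 108 and 97.4 in SMA, 155, 202, 243 and 241 in WT libraries, -0.92, SE 0.18, adjusted p = 0.0374). Both fell beside the endothelial markers described below, whose part was not tested.

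Without SMA library 3, 6 of the list of 21 rose and 2 fell (7.54% and 3.94% of all genes). Pnpla2, the triglyceride lipase ATGL, was at 1389.9, 1757, 985 and 1435 in SMA and 739.7, 846, 717 and 952 in WT libraries and lay just above the threshold (0.75, adjusted p = 0.0504, and 0.0029 without SMA library 3). Plin2, the droplet coat protein of many cell types, was at 20763, 22571, 13662 and 25327 in SMA and 14150.5, 13693, 14195 and 13338 in WT libraries (0.54, adjusted p = 0.097, and 0.000597 without SMA library 3), so SMA library 3 was at the WT level and the other SMA libraries were above it. The genes that mark mature fat cells were low. Plin1, their droplet coat protein, was at 336, 122, 253 and 55.5 in SMA and 10.9, 55.5, 117 and 31.7 in WT libraries (1.96, SE 0.74, adjusted p = 0.156). Adipoq, the hormone adiponectin, was at 46.6, 21.2, 36.5 and 8.36 in SMA and 5.83, 3.09, 5.99 and 10.9 in WT libraries (1.83, SE 0.56, adjusted p = 0.101). For both, SMA libraries 1, 2 and 3 lay above all WT libraries and SMA library 4 did not. Plin4 is listed at 0 in WT libraries 1 and 4 and overlapped between the groups (adjusted p = 0.19). In the authors' deposited DESeq2 results Pnpla2 (adjusted p = 0.00036), Plin2 (0.00814) and Adipoq (0.0162) passed at 0.05. Plin1 (0.121) and Plin4 (0.58) did not pass there.

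**Figure D4:**
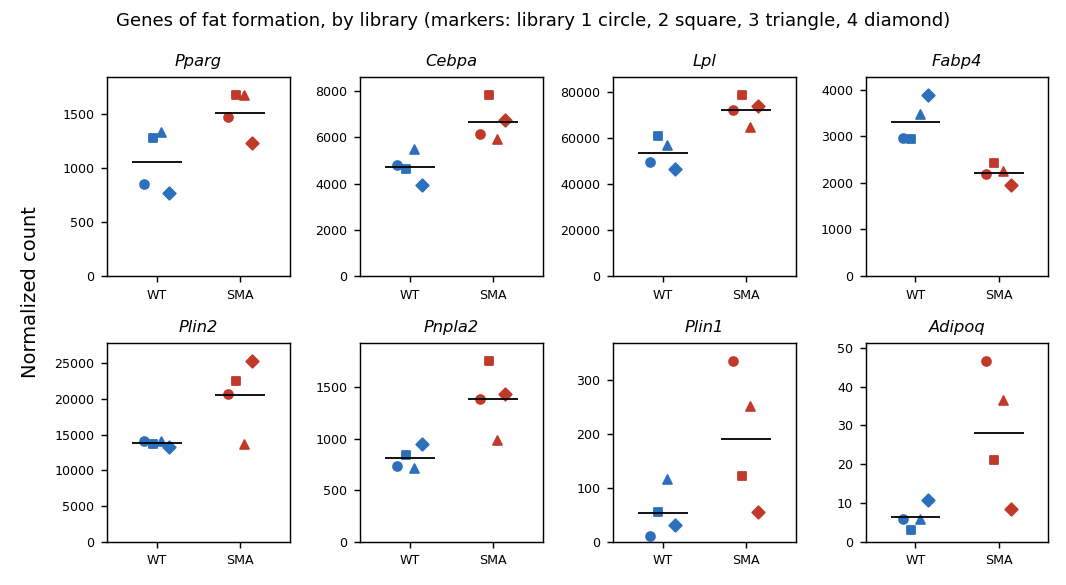
Normalized counts of 8 genes of fat formation in each library, WT in blue and SMA in red, with the marker shape giving the library number and the line the group mean. Lpl and Fabp4 do not overlap between the groups and lie in opposite directions, while Adipoq and Plin1 are spread widely over the SMA libraries (8.36 to 46.6 and 55.5 to 336).

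Endothelial markers were lower in SMA libraries. Of 22 tested 0 rose and 11 fell (1.17% of all genes were lower). Of the 22, 21 were negative and 17 did not overlap between the groups (14.1% of all genes). The median log2 fold change was -0.93 (-1.03 to -0.78 when each library was left out in turn). Without SMA library 3, 15 fell (3.94% of all genes). No marker was at 0, and the normalized counts of the 22 summed to 20412 to 24682 in SMA and 30679 to 42395 in WT libraries. Their mean log2 level was -0.96, -0.62, -0.61 and -1.14 in SMA libraries 1 to 4 and -0.18 to 0.35 in WT libraries, with WT library 4 the highest.

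Plvap, a protein of the diaphragms of fenestrated capillaries, was at 495, 794, 860.3 and 632 normalized counts in SMA and 1674, 1519.6, 1614 and 1974 in WT libraries (-1.31, SE 0.17, adjusted p = 0.0273). Cdh5, VE-cadherin of endothelial junctions, was at 1328, 1860.4, 1992 and 1249 in SMA and 2637, 2499, 3097 and 3942 in WT libraries (-0.93, SE 0.19, adjusted p = 0.0391). The falls included the receptors Tie1 (-1.09) and Flt1 (-0.90), the junction protein Esam (-1.04), the transcription factor Sox18 (-1.20), the nitric oxide synthase Nos3 (-1.05) and Adgrf5 (-0.95), at adjusted p = 0.0299 to 0.0414. Pecam1, which encodes CD31, did not overlap between the groups and did not pass (1839, 2272, 2415 and 1474 in SMA, 2865, 2902, 3677 and 4732 in WT libraries, -0.82, adjusted p = 0.0564). Tek (0.08, adjusted p = 0.859) and Eng (-0.24, adjusted p = 0.138) were nearer to 0.

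Pericyte and smooth muscle markers, the cells that wrap vessels, were lower without many calls. Of 13 tested 1 fell (1.17% of all genes), and 3 without SMA library 3 (3.94%), and 11 were negative, with a median of -0.25. The gene that fell, Acta2, encodes smooth muscle actin, which myofibroblasts also make. It was at 4976, 5344, 4354 and 5754 normalized counts in SMA and 9532, 6606, 7638 and 9681 in WT libraries (-0.70, SE 0.13, adjusted p = 0.0364). Rgs5, a pericyte marker, was at 2044, 2654, 3041 and 1819.5 in SMA and 3993, 3078, 3746 and 5660.2 in WT libraries with no overlap but no pass (-0.78, adjusted p = 0.0718), and Tagln, another contractile gene, stayed near 0 (-0.06, adjusted p = 0.755).

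No marker of FAPs passed limma with all libraries. Pdgfra, the receptor that defines FAPs, was at 62001, 59457, 77326 and 64587 normalized counts in SMA and 64098, 77915, 68164 and 71912 in WT libraries (-0.10, 95% interval -0.31 to 0.10, adjusted p = 0.534). Ly6a, which encodes Sca-1, was at 44951, 43510.5, 60582 and 58379.5 in SMA and 34794, 58264, 43137 and 45794 in WT libraries (0.20, 95% interval -0.17 to 0.57, adjusted p = 0.504). Of 25 FAP markers 0 passed limma, with 6 at an unadjusted p under 0.05 (23.3% of all genes, so near the background) and 1 higher without SMA library 3, and the median was 0.05. Apod, a lipocalin of stromal cells, had the largest value and did not overlap (15669, 14721, 16529.8 and 19020.4 in SMA, 5914, 11374, 8471 and 11394 in WT libraries, 0.87, adjusted p = 0.0512). Cxcl14, a chemokine of a FAP subset, had the lowest (-0.57, adjusted p = 0.139). The authors' deposited DESeq2 results call Apod (adjusted p = 0.000664) and Cxcl14 (0.0357) at 0.05, and neither Pdgfra (0.597) nor Ly6a (0.527). Markers of Schwann cells (12 tested), satellite cells and myoblasts (9), myofibres (17) and red cells (3) gave 0 calls with limma, with 4, 0, 0 and 0 at an unadjusted p under 0.05. With SMA library 3 left out, 3 Schwann cell markers and 1 myofibre gene were higher (7.54% of all genes). The median of the Schwann cell list then went from 0.18 to -0.01.

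Matrix genes gave few calls. Of 17 collagens 0 passed limma (3 at an unadjusted p under 0.05, median -0.11), also without SMA library 3. Col1a1, the main fibrillar collagen chain, was at -0.13 (95% interval -0.42 to 0.16, adjusted p = 0.586). Of 18 collagen-modifying enzymes 16 were negative and 1 fell, Loxl3, a crosslinking enzyme (-0.35, SE 0.07, adjusted p = 0.0372). Among 26 myofibroblast and matricellular genes 2 rose and 2 fell, and 2 and 3 without SMA library 3. Ccn1, a matricellular target of mechanical signalling, was at 87851, 90998, 86849.6 and 111633 in SMA and 68393, 65211, 64217 and 68292 in WT libraries (0.50, SE 0.08, adjusted p = 0.0307), and Tgfbi rose by 0.51 (adjusted p = 0.0487). Fbln2, an elastic fibre protein, fell beside Acta2 (-0.30, SE 0.06, adjusted p = 0.0364).

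Interferon response genes were higher in SMA libraries with few calls. All 29 tested had a log2 fold change above 0, with a median of 0.48, 9 did not overlap between the groups, and 3 passed, the transcription factors Irf1 (0.56, SE 0.10, adjusted p = 0.0317) and Irf9 (0.37, adjusted p = 0.0447) and Oasl1 (0.70, adjusted p = 0.0416). Irf1 was at 21993, 20979, 25616 and 21159.5 normalized counts in SMA and 15643, 16299.6, 12628 and 16623 in WT libraries. WT library 1 was low for this list, at a mean log2 level of -0.59 against 0.12 to 0.36 in the other WT libraries and 0.41 to 0.63 in SMA libraries. Without WT library 1 the median was 0.28, and without SMA library 3, 4 genes rose. For Ifit3, an antiviral effector, WT library 1 was at 3778 and the other libraries at 7023 to 12595 normalized counts (0.64, adjusted p = 0.187). Among 20 genes of MHC class I, Nlrc5, the class I counterpart of Ciita, rose (1872, 2771, 2500.0 and 2558 in SMA, 1221, 1706, 1598 and 1459 in WT libraries, 0.69, SE 0.14, adjusted p = 0.0384), and without SMA library 3, 3 of the list rose and 1 fell. The class I genes H2-D1 (0.62, adjusted p = 0.0597) and B2m (0.50, adjusted p = 0.0847) did not pass with all libraries.

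The calls among secreted and degradative genes of inflammation depended on SMA library 3. Of 28 cytokines and chemokines 1 rose, Il1b, an inflammatory cytokine of monocytes and macrophages (3183, 3731, 2082 and 3935 in SMA, 1513, 1200.4, 1144 and 1405 in WT libraries, 1.26, SE 0.19, adjusted p = 0.0299). Without SMA library 3, 10 rose and 1 fell (7.54% and 3.94% of all genes). Of 17 complement genes and 28 lysosome genes 0 passed limma, with 5 and 17 at an unadjusted p under 0.05. Without SMA library 3, 5 and 17 rose (7.54% of all genes). Ctsb, a lysosomal protease abundant in macrophages, was at 203304, 235580.0, 131155 and 241498 in SMA and 139951, 123280.0, 128244 and 149082 in WT libraries (0.55, adjusted p = 0.113, and 0.00156 without SMA library 3). These lists moved beside the macrophage markers (0.15 in SMA library 3 against 0.94 to 1.42 in the other SMA libraries), whose part was not tested. The complement list shares C1qa, C1qb and C1qc with the macrophage list.

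Signalling pathways gave 1 call. Sfrp2, a secreted Wnt inhibitor of FAPs, was at 74479, 82379, 57503 and 64430.5 normalized counts in SMA and 100131, 96106, 107081 and 104717 in WT libraries and fell (-0.56, SE 0.10, adjusted p = 0.0345), while the other 23 Wnt genes did not pass. Of 14 Hedgehog, 16 Notch, 15 IGF and 24 TGF-beta and BMP genes 0 passed limma, with 2, 4, 5 and 4 at an unadjusted p under 0.05. With SMA library 3 left out, 2 Notch genes rose and 1 fell, 2 TGF-beta and BMP genes rose and 1 fell, 1 IGF gene rose, and 1 Wnt gene rose and 2 fell. Dll4, a Notch ligand of endothelial tips, had the lowest value among these 4 lists (188, 224, 148 and 87.5 in SMA, 269.8, 308, 362 and 478 in WT libraries, -1.17, adjusted p = 0.0645). Igf1, a growth factor from macrophages and stroma, was at 0.45 (adjusted p = 0.0918).

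Cell cycle genes were lower by small amounts. Of 30 tested 29 were negative and 14 did not overlap between the groups (14.1% of all genes). The median was -0.27 (-0.31 to -0.21 when each library was left out in turn). With all libraries 1 fell (1.17% of all genes), and 12 fell without SMA library 3 (3.94% of all genes). The gene that fell with all libraries was Foxm1, a transcription factor of mitotic genes (2996, 2631, 2916 and 2791 in SMA, 3660.2, 3568, 3347 and 3478 in WT libraries, -0.31, SE 0.06, adjusted p = 0.0328). Mki67, the proliferation marker, was at 13273, 10874, 13062 and 10575 in SMA and 16334, 14707, 15408 and 14747 in WT libraries without passing (-0.36, adjusted p = 0.052). Tacc3, a protein of the mitotic spindle outside the list, fell (-0.38, SE 0.06, adjusted p = 0.0299).

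Genes of general cell functions gave few calls. Of 20 genes of the SMN complex and Sm proteins, Smn1 fell, with a median of -0.11. In the fit without SMA library 3, 3 fell and the median was -0.16, with Snrpd2 and Snrpd3, which encode Sm core proteins, beside Smn1 (adjusted p = 0.0447 and 0.0482). Of 28 nuclear-encoded genes of oxidative phosphorylation 1 fell, Uqcrq, a subunit of complex III (-0.27, adjusted p = 0.0353), and 4 fell without SMA library 3. Of 29 ribosomal protein genes, 26 glycolysis genes, 21 genes of the unfolded protein response and 22 p53 targets 0 passed limma, with 1, 2, 10 and 5 at an unadjusted p under 0.05. In that fit, 2 genes of the unfolded protein response rose and 5 fell, 3 p53 targets rose, and 1 glycolysis gene rose and 1 fell. Gdf15, a stress cytokine that macrophages also make, had the highest value of the p53 targets (0.93, adjusted p = 0.0841). Among 22 immediate early and dissociation genes Egr1 (0.59, SE 0.09, adjusted p = 0.0299) and Dusp1 (0.34, adjusted p = 0.0317) rose, with 3 higher without SMA library 3, and the median of that list was 0.09.

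Some of the genes named for a small p or a large change belong to none of the pathway lists. Ptn, the secreted growth factor pleiotrophin, was at 8482, 9739, 9323 and 11421 normalized counts in SMA and 4024, 5826, 4013 and 4298 in WT libraries, and even the lowest SMA library exceeded the highest WT library (1.11, SE 0.13, adjusted p = 0.0273). Dlk1, an inhibitor of fat cell differentiation, was at 3825, 2748, 2259 and 4435 in SMA and 1392, 1807, 1208 and 683 in WT libraries (1.42, SE 0.30, adjusted p = 0.0454). Peg3, an imprinted zinc finger gene, was at 9983, 10409, 10743 and 10202 in SMA and 6786, 7983, 7432 and 6651 in WT libraries (0.52, SE 0.06, adjusted p = 0.0273). For Ptn and Peg3, SMA library 3 lay with the other SMA libraries. Pnpla7, a lysophospholipase, rose by 0.58 and the phosphatase regulator Ppp1r10 by 0.31, both at adjusted p = 0.0273. In the other direction, Zfp469, a gene linked to collagen matrix of the cornea, was at 3232, 2902, 3176 and 2766 in SMA and 5362, 4786, 4689 and 5350.1 in WT libraries and had the smallest p of all (-0.74, SE 0.07, adjusted p = 0.0273). Fkbp11, a folding helper of the secretory pathway, fell too (-0.46, SE 0.06, adjusted p = 0.0273). Rgs1, a regulator of chemokine receptor signals in immune cells (1.47, SE 0.28, adjusted p = 0.0364), and Ms4a4c, a membrane protein of myeloid cells (1.43, SE 0.22, adjusted p = 0.0299), rose beside the macrophage markers.

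The effect of the genotype after glycerol differed from that after BaCl2 in MHC class II, interferon and endothelial genes, among others. For 13960 genes fitted in both tables, the difference of the log2 fold changes, glycerol minus BaCl2, was tested against its standard error with a normal reference (z test), and again with a t reference, which allows for the few libraries and was added after the data were seen. The z test called 1470 genes (10.5%), 772 of them more positive after glycerol (5.53%) and 698 more negative (5%), and the t test called 530 (3.8%, with 1.88% more positive and 1.92% more negative). On simulated data the z test gave more false calls than its threshold allows and the t test did not, so counts by t are given beside those by z. The edgeR test after BaCl2 also gave more false calls than its threshold there. The batch label of the samples is the name of the injury, and batch and injury cannot be told apart.

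Of 11 MHC class II genes, 7 were more positive after glycerol by the z test and 6 by the t test, and 0 were more negative. After BaCl2 the median of the list was 0.39, with 9 of 11 positive and 2 higher by edgeR, Ctss (0.80, adjusted p = 0.00376) and Ifi30 (0.47, adjusted p = 0.0132). Cd74 was at 0.39 after BaCl2 (adjusted p = 0.138), and its difference was 1.35 (adjusted p = 0.012 by t). For H2-Ob and H2-DMb2 the difference did not pass, with 0.93 and 1.26 after BaCl2. H2-Aa was at 0.06 after BaCl2 (SE 0.16, edgeR adjusted p = 0.89) against 1.89 after glycerol, a difference of 1.83 (SE 0.27, adjusted p = 4.68e-08 by z and 0.00709 by t). Ciita was at -0.13 after BaCl2, a difference of 2.30 (adjusted p = 0.000429 by z and 0.0199 by t), and H2-Eb1 was at -0.03, a difference of 1.62 (adjusted p = 4.35e-06 and 0.0115). Macrophage markers gave few such differences. Of 29, 26 were higher in SMA after BaCl2 (edgeR called 4.29% of 20119 genes there), with a median of 0.92 against 1.02 after glycerol, and by the t test 0 of 29 differed between the injuries, with 2 more negative after glycerol by the z test. The difference for Ptprc was 0.30 (SE 0.27, adjusted p = 0.52), which does not show that the effects were equal.

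Endothelial markers had opposite signs after the 2 injuries. After BaCl2, 20 of 22 were positive with a median of 0.48, and 0 passed edgeR (5 at an unadjusted p under 0.05, and 0 by DESeq2), while after glycerol the median was -0.93. The difference was negative for 19 of 22 by the z test and 15 by the t test. Cdh5 was at 0.61 after BaCl2 (SE 0.24, adjusted p = 0.206), a difference of -1.54 (SE 0.31, adjusted p = 9.2e-05 by z and 0.0148 by t). Zfp366, which dendritic and endothelial cells express (-1.97), Apold1, an early response gene of endothelium (-1.76), and Rgs5 (-1.60) were also more negative after glycerol (adjusted p = 0.00532 to 0.0105 by t). Lrrc32, which presents latent TGF-beta on the cell surface, also differed (-0.77, adjusted p = 0.00132 by t).

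**Figure D5:**
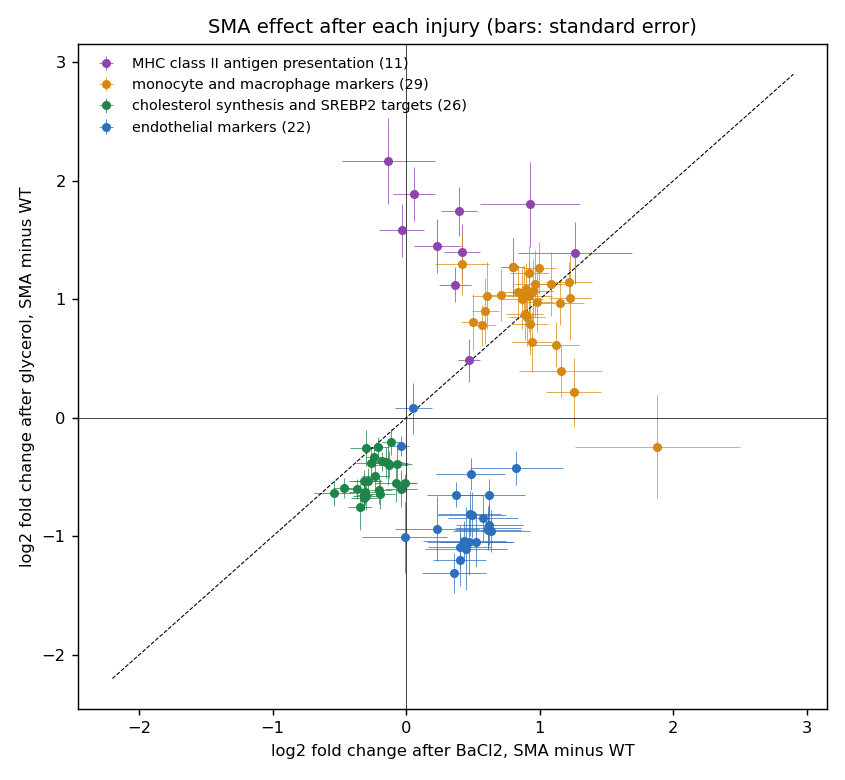
Log2 fold change, SMA minus WT, after BaCl2 (x axis) against that after glycerol (y axis) for the members of 4 lists, with bars of 1 standard error and a dashed line where the effects are equal. MHC class II genes (purple) lie mostly above the line, macrophage markers (orange) scatter around it, cholesterol genes (green) are negative after both injuries, and endothelial markers (blue) are mostly positive after BaCl2 and negative after glycerol.

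Lipid genes differed between the injuries by group. Of 26 cholesterol genes 26 were negative after BaCl2 as well (median -0.24, 3 fell), and the difference was called for 2 by the z test and for 1 by the t test, Tmem97 (-0.54, adjusted p = 0.0152 by t). Among the export genes Pltp (1.27, adjusted p = 0.0194), Mylip (0.63, adjusted p = 0.0108) and Npc2 (0.52, adjusted p = 0.0219) were more positive after glycerol by t, 3 of the list in all, and Abcg1 was so by z only (0.89, adjusted p = 0.0123 by z and 0.0814 by t). Lpl was at -0.27 after BaCl2 (adjusted p = 0.0846) and 0.44 after glycerol, a difference of 0.71 (SE 0.12, adjusted p = 3.85e-06 by z and 0.0108 by t). The differences for Pparg (0.68, adjusted p = 0.0185 by z and 0.0843 by t), Cebpa (0.47, 0.00865 and 0.0577), Plin1 (2.85, 0.00694 and 0.0664) and Fabp4 (-0.82, 0.0137 and 0.0717) passed by z and not by t. Of 23 adipogenic transcription factors 7 were more positive and 1 more negative by z, and 2 and 1 by t. Those passing by t were Egr2, an early growth response factor (0.48, adjusted p = 0.0287), Zfp467 (0.81, adjusted p = 0.0429) and, more negative, Gata2, which restrains fat formation and is also an endothelial factor (-0.97, adjusted p = 0.0445). Of 14 fatty acid synthesis genes 3 were more negative by z and 2 by t, Fasn (-0.61, adjusted p = 0.0162) and Elovl5 (-0.33, adjusted p = 0.0417).

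Interferon genes were negative after BaCl2 (27 of 29, median -0.36) and positive after glycerol, and the difference was positive for 19 of 29 by the z test and for 10 by the t test. The glycerol median of 0.48 became 0.28 without WT library 1, which was low for this list. Irf1 was at -0.14 after BaCl2, a difference of 0.70 (SE 0.12, adjusted p = 0.0115 by t). Cell cycle genes were more negative after glycerol for 19 of 30 by z and 8 by t. Of the genes with the smallest p in this test, Peg10, an imprinted gene derived from a retrotransposon, was at -0.67 after BaCl2 and 0.14 after glycerol (0.81, adjusted p = 0.00132 by t). Ecm1, a secreted matrix protein (0.74), Astn2, a membrane protein best known in neurons (1.57), and Agt, which encodes angiotensinogen (1.69), were also more positive after glycerol (adjusted p = 0.0018 to 0.00532 by t). Ptn was at -0.29 after BaCl2, a difference of 1.40 (SE 0.24, adjusted p = 0.0115 by t).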

How the data were processed

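RNA of freshly isolated FAPs was made into poly(A)-selected, strand-specific libraries from 50 ng of total RNA, per the labels' protocols. The tools named in the submitters' processing notes are DESeq2, featureCounts, Salmon and fastp, with neither version nor role. The aligner, build and annotation were not given in the sources used here. For glycerol the authors deposited a signal per gene, their normalized counts (scaled by size factors, with means equal to the deposited base mean). Of their low values, 45 to 56.5% per library came out as whole reads at a tolerance of 0.1, so the depth behind them is unknown and no count test was run. For BaCl2 the authors deposited raw counts, 97.7 to 136 M (mega) per library, and 6 further columns of per-sample values under repeated names were not used. The authors' deposited tables also hold log2 fold changes with standard errors, a test score, p-values and adjusted p-values. Their glycerol table calls 1759 genes at 0.05, 1025 higher and 734 lower, which include all 411 called here.

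Values after glycerol were taken as log2(value + 1) and tested for all 14330 genes with limma 3.58.1 (R 4.3.3), with a mean-variance trend and Benjamini-Hochberg adjustment at 0.05. Fold changes are on this scale, which understates the change of low genes. Errors are standard errors, and intervals cover 95%. Counts after BaCl2 were tested with edgeR 4.0.16 (quasi-likelihood, TMM, its filter on low counts). DESeq2 1.42.0 served as an alternative there. The scripts were tested on simulated data, where false calls of limma were near its threshold and those of edgeR and of the z test for the difference were above it. Levels are not per gene length and are not compared between genes.

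Groups come from the labels. Genes named are the 10 largest changes and the 8 smallest p per direction among passing, non-overlapping genes with a mean above the median of gene means, up to 5 passing members per list, 13 fixed genes, and the 5 smallest p per direction for the difference between injuries. Further list members are given to show what a list holds. Some list members are counted but not reported here by name. The comparison, the 40 lists (730 of 788 symbols are in the glycerol table) and these rules were chosen with earlier results of these data known. Alternatives covered the pseudocount, low values, scaling, trend, library weights, the replicate number as a block, each library left out, the BaCl2 tool and the reference distribution. Promoters are from RefSeq (GRCm38.p6).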

Additional observations from a re-analysis of the deposited data

Results flagged for a closer look

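Groups of 4 libraries were checked for 1 library far from the other 3, by the gap to the nearest library as a share of the range (Dixon's 95% critical value). Of 250 groups over 85 genes and 40 lists, 16 exceeded that value, and chance gives about 1 in 20 groups. SMA library 3 was low for H2-Eb1 (1368 normalized counts, others 2653 to 2748) and for the MHC class II list (a log2 level of 0.84, others 1.65 to 1.76). SMA library 4 was high for Ccn1 (111633, others 86850 to 90998), for Dusp1 (42475, others 37756 to 38554) and for neutrophil markers (0.51). SMA library 1 was high for myofibre genes (0.73). Among WT libraries, number 4 was low for Acsl3 (4799.7, others 5477 to 5588) and Stard4 (5372, others 6482 to 6704), and high for cytokines and chemokines (0.39) and sterol export (0.062). WT library 2 was high for Ecm1 (21082, others 18083 to 18168) and Ptn (5826, others 4013 to 4298) and low for the unfolded protein response (-0.10). WT library 1 was low for Ms4a4c (608, others 1069 to 1132) and high for Scd1 (12157, others 10391 to 10600), and WT library 3 was low for Fbln2 (175420, others 197371 to 198290.0).

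The difference between the injuries was looked at here for named genes chosen by size of change, as fixed genes or by this difference. Genes named only by smallest p or by list were left out. At 26 of the genes looked at, the effect of the genotype differed by the z test, where 10.5% of all genes did. Changes chosen as large after glycerol enter the difference itself, so the 10.5% is no fair background for the 26. More positive after glycerol were Plin1 (2.85), H2-Aa (1.83), Agt (1.69), H2-Eb1 (1.62), Astn2 (1.57), Cd74 (1.35), Pltp (1.27), H2-Ab1 (1.22), Dlk1 (0.96), Abcg1 (0.89), Ms4a4c (0.88), Peg10 (0.81), Ecm1 (0.74), Lpl (0.71), Ly6a (0.69), Pparg (0.68) and Cebpa (0.47). More negative after glycerol were Zfp366 (-1.97), Apold1 (-1.76), Rgs5 (-1.60), Adgrf5 (-1.56), Cdh5 (-1.54), Pecam1 (-1.31), Zfp469 (-0.84), Fabp4 (-0.82) and Lrrc32 (-0.77). By the t test, added after the data were seen, Plin1, Pparg, Cebpa, Fabp4, Abcg1, Dlk1, Ly6a and Ms4a4c no longer passed (adjusted p = 0.0577 to 0.115). Ly6a was at -0.50 after BaCl2 and 0.20 after glycerol. The 5 genes per direction with the smallest p were chosen by this same test, so that they pass it adds nothing.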

How the results depend on the processing

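The count of 411 called genes became 2 without the mean-variance trend, 1477 with library weights and 257 with the replicate number as a block (182 of them shared). Without 1 library it ranged from 0 to 1645. The log2 fold change of Smn1 stayed -0.54 without the trend (adjusted p = 0.0641) and with the replicate block (-0.54, adjusted p = 0.0715), so that it no longer passed, and ranged from -0.61 to -0.47 without 1 library. The 1470 genes called for the difference between injuries became 958 with DESeq2 for BaCl2, 530 with the t reference and 1939 with the replicate block, and ranged from 1004 to 1969 without 1 library. Another pseudocount, a mean of at least 100, centred medians and quantile normalization left 409 to 429 calls. All 73 named genes that passed kept their direction in each of the 16 alternatives in which they could be fitted, and 0 to 73 still passed limma when 1 library was left out (34 without WT library 4, 73 without SMA library 3 and at most 3 in the other fits), 43 with the block and 0 without the trend. The causes of these changes were not tested, other than that leaving out a library leaves fewer samples. Same-numbered libraries of both genotypes were not shown to pair, since their deviations correlated at 0.154, -0.0905, -0.00592 and 0.0627, and 2 of 8 libraries correlated best with their own number. The unknown depth limits what can be said of low genes such as Adipoq, Plin1 and Ciita.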

Other observations

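The genes below were chosen after their values were seen. Imprinted genes, which are expressed from 1 parental copy, did not move together. Cdkn1c, a growth inhibitor, was at 1567, 1406, 1357 and 2545 normalized counts in SMA libraries 1 to 4 and 738, 864, 901 and 973 in WT libraries 1 to 4, with no overlap, and rose beside Peg3 and Dlk1 (log2 fold change 0.94, SE 0.19, limma adjusted p = 0.0393). After BaCl2 it was at -0.26, a difference of 1.20 (adjusted p = 0.0205 by t). Dio3, which inactivates thyroid hormone and lies in the same imprinted domain as Dlk1, moved the other way. It was at 291, 321, 244 and 279 in SMA and 750.3, 413, 523 and 756 in WT libraries (-1.06, SE 0.20, adjusted p = 0.0353), against 0.20 after BaCl2, a difference of -1.26 (adjusted p = 0.0142 by t). Mest (0.11), Grb10 (0.06), Sgce (0.01) and Plagl1 (-0.07) did not pass.

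Other genes of immune cells passed outside the lists. Dnase1l3, a DNase of macrophages and dendritic cells, was at 199, 179.7, 107 and 152 normalized counts in SMA and 40.2, 54.2, 45.7 and 53.8 in WT libraries (1.67, SE 0.22, adjusted p = 0.0273). Cd274, the checkpoint ligand PD-L1, which interferon gamma can induce, was at 2029, 2523, 1664 and 2552 in SMA and 1069, 1203, 1258 and 1264 in WT libraries (0.85, SE 0.14, adjusted p = 0.0299). Il15, a cytokine for lymphocytes, rose by 0.82 (SE 0.13, adjusted p = 0.0307). These rose beside the macrophage markers, whose part was not tested.

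Some large values did not pass. Mid1-ps1, a pseudogene of Mid1, was at 8.64, 226, 0 and 4.99 normalized counts in SMA and 327, 508, 518 and 389 in WT libraries, so 3 SMA libraries lay near 0 and SMA library 2 lay below all WT libraries (adjusted p = 0.0648). Reads of a pseudogene may be shared with its parent gene. Selp, P-selectin of activated endothelium, was at 423, 307, 1454 and 635 in SMA and 3430.4, 1615, 1226 and 4749 in WT libraries (-2.02, SE 0.54, adjusted p = 0.0747), in the direction of the endothelial markers, and SMA library 3 lay above WT library 3.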
